A study of Homo sapiens with 10 samples.

Results

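The 10 genes read here belong to the RAS-ERK cascade: the scaffold CNKSR2, the phosphatases DUSP4, DUSP5 and DUSP6, the inhibitors SPRY2, SPRY4, SPRED1 and SPRED2, and the ETS factors ETV4 and ETV5. They were chosen with the input RNA contrast of A549/DDP against A549 known, in which CNKSR2 was among the largest falls, and are 10 of the 58037 genes in the tables. A549 is a lung adenocarcinoma line and A549/DDP its cisplatin-resistant counterpart. The paper states that A549 was bought from a supplier and that A549/DDP was a gift from another laboratory. Differences of stock and of resistance therefore cannot be told apart. Both grew in RPMI 1640 with 10% fetal bovine serum for at most 10 passages, and the labels state no drug at harvest. Each line had 2 input RNA libraries and 2 m6A libraries. The A549 inputs held 35286514 and 34570074 expected counts, and the A549/DDP inputs 29225501 and 33971561. A second pair of A549 inputs, with labels that differ by a full stop and name no experiment, held 855034 and 982036.

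RAS passes growth factor signals through RAF and MEK to ERK, and scaffold proteins bring these kinases together. Active ERK induces genes whose products then dampen the cascade, among them DUSP phosphatases, Sprouty and SPRED proteins. The RNA of these genes is often read as an output of the cascade, although phosphorylated ERK was not measured here.

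Nothing in the labels says that the 2 libraries of a line came from separate cultures, so a p-value here measures the spread between these libraries only. The RNA was bulk, so fewer cells of a type and less RNA per cell cannot be told apart. The summed TPM of 5 epithelial markers was 3684 and 7921 in A549 and 14741 and 14736 in A549/DDP, with KRT8 the largest part. KRT19 did not follow the sum, with 33.34 and 63.95 against 9.24 and 0, and EPCAM had 2.45 and 6.95 against 4.54 and 5.35. Fibroblast markers summed to 10.0, 5.31, 21.9 and 3.48 in the same order, and endothelial markers to 0.21, 0.40, 0.20 and 0. Blood markers summed to 0.63, 0.03, 2.04 and 4.86. Neuronal markers, read because CNKSR2 is best known from neurons, summed to 96.3, 124, 198 and 249. The higher sum came from TUBB3, with TPM of 44.69, 68.46, 167.65 and 206.73. SYT1 had 18.61, 19.57, 4.28 and 15.29 and RBFOX3 10.63, 15.27, 6.54 and 2.02, both lower in each A549/DDP library.

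The clearest difference was CNKSR2, which encodes a scaffold that binds RAF at the membrane. Its TMM-scaled counts (CPM) were 37.5 and 46.1 in A549 and 0.0675 and 0 in A549/DDP, so the lines did not overlap. Before scaling the counts were 1235 and 1634 against 2 and 0. The pooled counts, 2869 against 2, gave a ratio of 1300 per unit of library size, with a 95% interval of 359 to 10700 from counting error alone. The edgeR log2 fold change was -10.22 with a standard error of 0.77. With only 2 counts in A549/DDP its size is poorly fixed: it was -13.50 without A549/DDP replicate 1 and -9.20 without replicate 2.

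Among the phosphatases, DUSP5 and DUSP6 were lower in A549/DDP while DUSP4 was not. DUSP5, a nuclear phosphatase of ERK, had CPM of 234 and 290.0 in A549 and 65.4 and 50.5 in A549/DDP, a log2 fold change of -2.18 ± 0.22 (standard error here and below), or 4.52-fold. DUSP6, which acts on ERK in the cytoplasm, had 36.0 and 34.1 against 1.59 and 6.54. Its log2 fold change was -3.10 ± 0.68, or 8.60-fold, but the A549/DDP libraries were 4.12-fold apart. It became -2.44 without A549/DDP replicate 1 and -4.47 without replicate 2. A RefSeq readthrough transcript from POC1B overlaps DUSP6. The A549/DDP expected counts of DUSP6, 46.96 and 227.76, were not whole numbers. DUSP4, the other nuclear phosphatase, had 212 and 310 in A549 and 347 and 338 in A549/DDP, a log2 fold change of 0.39 ± 0.21. It passed the threshold only when A549 replicate 2 was left out, at 0.67, and was 0.13 without A549 replicate 1.

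The products of the 2 Sprouty genes act upstream of RAF. SPRY2 had CPM of 38.3 and 33.3 in A549 and 7.25 and 6.65 in A549/DDP, a log2 fold change of -2.37 ± 0.32 or 5.15-fold. SPRY4 had 28.4 and 21.1 against 10.7 and 16.1, with -0.89 ± 0.38, and did not pass the threshold. SPRY4 did not overlap in CPM but did in TPM, with 10.12 and 9.0 in A549 and 7.07 and 9.19 in A549/DDP.

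The SPRED genes encode membrane proteins that bring the RAS inhibitor neurofibromin to RAS. Neither passed the threshold, and their values depended on the unit. SPRED1 had CPM of 32.0 and 41.4 in A549 and 27.2 and 14.8 in A549/DDP, with a log2 fold change of -0.81 ± 0.38. In TPM it was 7.47 and 14.5 against 14.21 and 9.68, which overlapped, and the log2 ratio of means was 0.12. The deposited mean transcript length of SPRED1 was 6301 and 4836 bases in A549 and 3062 and 2499 in A549/DDP. SPRED2 had CPM of 68.8 and 54.0 against 51.9 and 35.5, with -0.49 ± 0.27, and here the log2 ratio of mean TPM was further from 0, at -1.07. Its mean length was 1954 and 1278 bases in A549 and 1997 and 2873 in A549/DDP, a log2 ratio of 0.59. Whether other transcripts were in use or RSEM shared the reads differently was not tested.

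ETV4 and ETV5 are ETS factors that ERK induces. ETV4 had CPM of 66.9 and 69.9 in A549 and 37.2 and 31.9 in A549/DDP, a log2 fold change of -0.99 ± 0.22 or 1.98-fold. ETV5 had 48.0 and 56.9 against 38.8 and 28.8, with -0.63 ± 0.26, and did not pass. Its TPM overlapped, with 30.96 and 37.57 in A549 and 31.62 and 23.96 in A549/DDP. ETV4 no longer passed the threshold without A549/DDP replicate 1 (-1.12) or A549/DDP replicate 2 (-0.89). The gene DHX8 overlaps ETV4 and had expected counts of 6397 and 6354 in A549 and 3279 and 4367 in A549/DDP. The libraries were strand-specific, but whether the counting used strand is not stated.

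**Figure D1:**
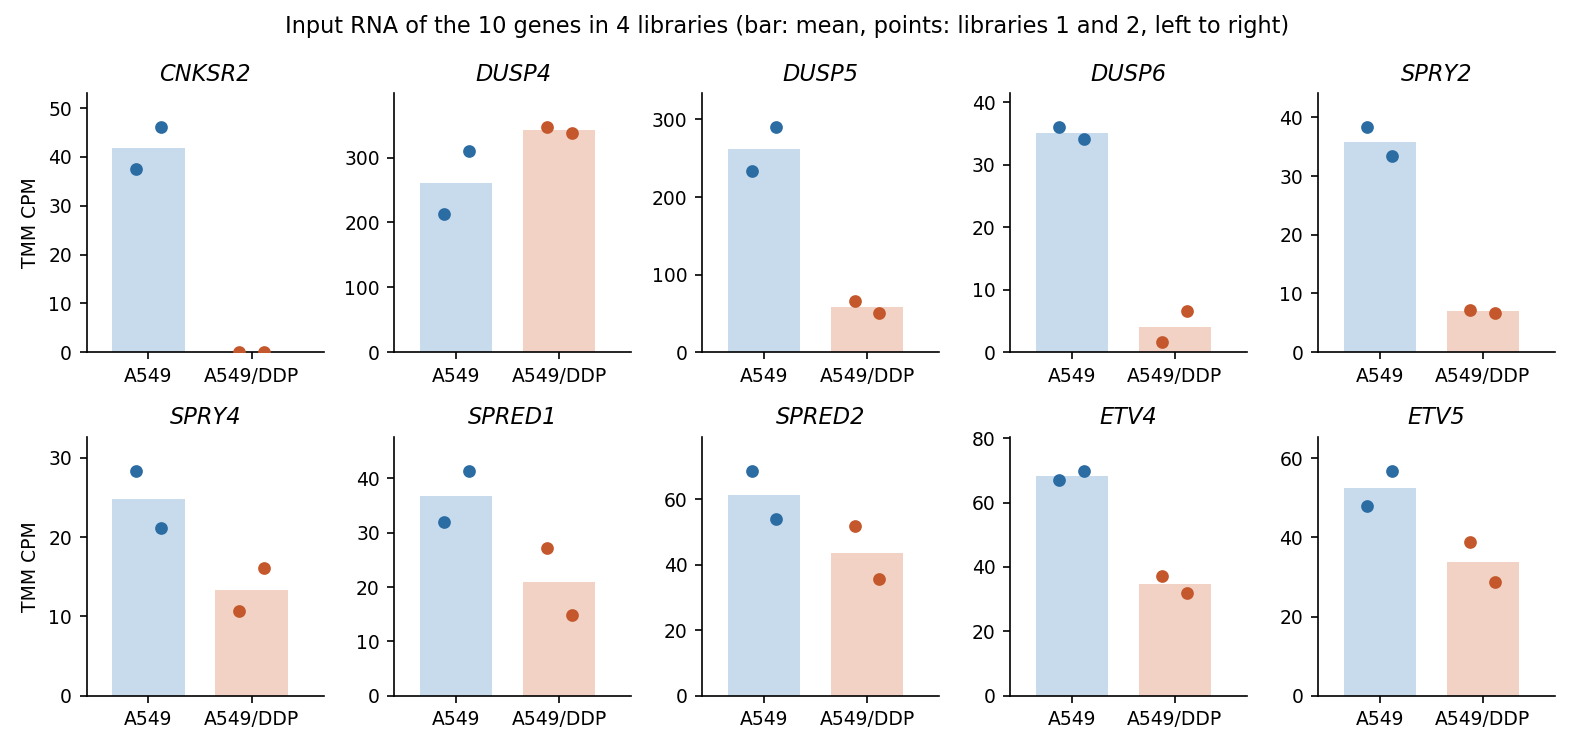
TMM-scaled CPM of the 10 genes in the 4 input libraries, each on its own axis. Points are libraries 1 and 2 and bars their mean.

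**Figure D2:**
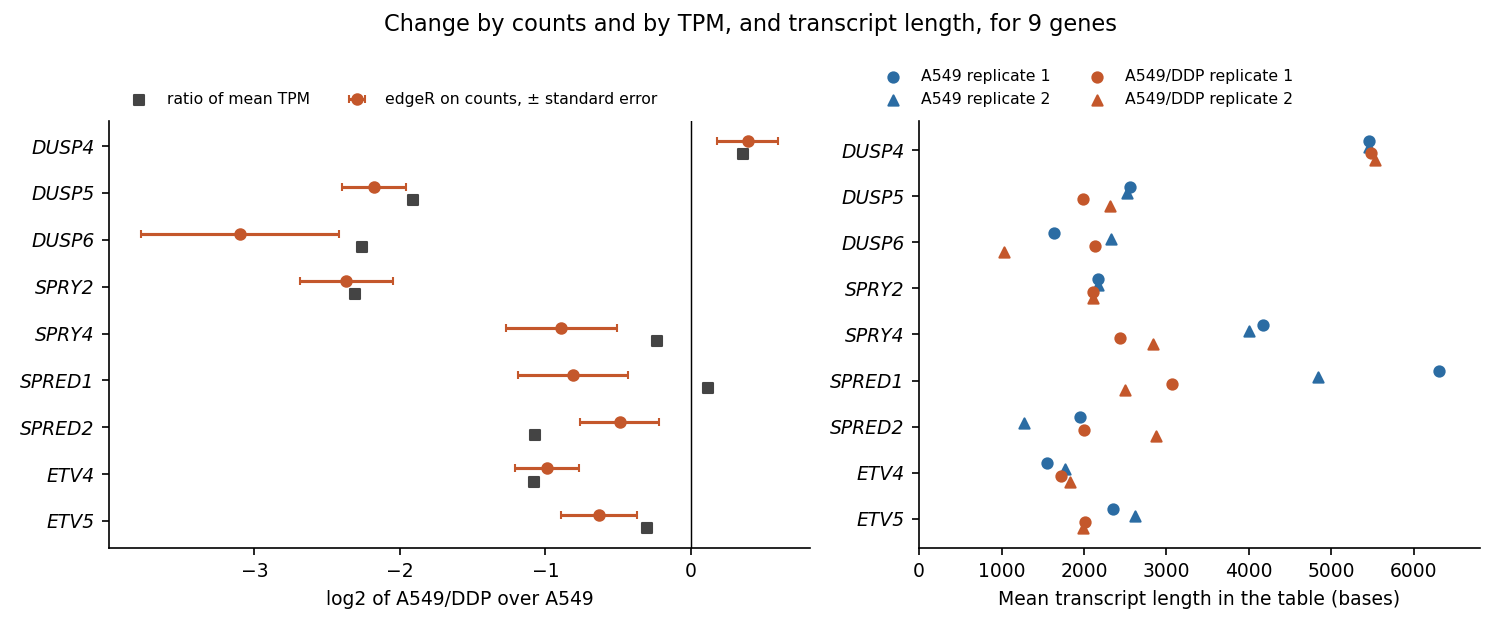
Left, log2 fold change from counts with its standard error beside the log2 ratio of mean TPM for 9 genes; CNKSR2 is left out because its fall would stretch the axis. Right, mean transcript length given in the tables for each library.

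Counted together, 5 of the 10 genes (CNKSR2, DUSP5, DUSP6, SPRY2, ETV4) lay under the edgeR threshold in the lower direction and 0 in the higher, beside 8.00% and 6.85% of the 16406 genes tested. Both A549/DDP CPM lay under both A549 values in 9 of the 10 and above them in DUSP4, beside 32.7% and 29.7% of all genes. Because the genes were chosen on this contrast, nothing is read from these counts. The median log2 fold change of the 10 was -0.94.

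Between genes, mean TPM in A549 ran from DUSP5 at 168.9 through DUSP4 at 76.6, ETV4 at 68.6 and SPRED2 at 65.6 down to SPRY4 at 9.56. In A549/DDP the order was DUSP4 at 98.3, DUSP5 at 44.8, ETV4 at 32.4, SPRED2 at 31.3 and ETV5 at 27.8, with CNKSR2 last at 0.01. DUSP5 was first in A549 with either replicate left out. The order of the next genes differed by library: in A549 replicate 1 ETV4 (67.2) was above DUSP4 (57.43), and in A549/DDP replicate 1 SPRED2 (42.57) was above ETV4 (35.71).

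The second A549 pair gave further A549 values, although the A549/DDP libraries, on whose values the choice of genes rested, were the same. Its p-values are therefore no independent test of the 10 genes. Mitochondrial genes took 75.2% and 73.9% of its counts, leaving 211799 and 256064. CNKSR2 had 5 and 6 counts there, or a CPM outside mitochondrial genes of 23.6 and 23.4, against 0.0685 and 0 in A549/DDP. The pooled ratio was 743, with a 95% interval of 162 to 6890 from counting error alone. CNKSR2 did not pass the low-count filter of the edgeR fit and was not tested there; DESeq2, which filters differently, gave it a log2 fold change of -10.63 ± 1.14.

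Against the second pair 9 of the 10 genes were tested, and 13815 genes in all, of which 10.0% were lower and 17.2% higher in A549/DDP. The p-values test each fitted log2 fold change against 0. In the edgeR quasi-likelihood test after Benjamini-Hochberg adjustment, DUSP5 fell by 1.40 ± 0.37 (adjusted p = 0.0109, from 10 and 27 counts in the second pair), DUSP6 fell by 3.51 ± 0.93 (0.0115, from 8 and 3) and DUSP4 rose by 1.36 ± 0.29 (0.0024, from 10 and 22). The median over all genes was 0.80, and relative to it the values were -2.20, -4.31 and 0.57, a distance from the median that was not tested. As CPM outside mitochondrial genes DUSP5 overlapped, with 47.2 and 105 in the second pair and 66.4 and 51.9 in A549/DDP, while DUSP6 had 37.8 and 11.7 against 1.61 and 6.71. DUSP4 had 47.2 and 85.9 against 352 and 347. On this scale the first A549 pair had 218 and 298 for DUSP5, 33.6 and 35.0 for DUSP6 and 198 and 318 for DUSP4. Both second pair libraries thus lay under the first pair in DUSP5 and DUSP4, and why was not tested.

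The DUSP5 and DUSP6 calls were each lost with 1 second pair library left out, though not with the other. DUSP5 was at -1.88 without second pair replicate 1, and at -1.85 and -1.49 without A549/DDP replicates 1 and 2. DUSP6 was at -4.12 without second pair replicate 2. Without second pair replicate 2 DUSP5 was at -0.61 ± 0.48 (adjusted p = 0.490, edgeR quasi-likelihood test after Benjamini-Hochberg adjustment), or -3.01 relative to a median of 2.40. Without second pair replicate 1 DUSP6 was at -2.54 ± 1.19 (adjusted p = 0.161, edgeR quasi-likelihood test after Benjamini-Hochberg adjustment), or -4.43 relative to a median of 1.89. Without either A549/DDP library DUSP6 did not pass the low-count filter. DUSP4 was higher in each such fit, at 0.98 without second pair replicate 1 and 1.95 without replicate 2 (adjusted p = 0.0166 and 0.000303, edgeR quasi-likelihood test after Benjamini-Hochberg adjustment). Because the median moved more, DUSP4 relative to it turned to -0.91 and -0.45. With DESeq2 the median was -0.34, and relative to it DUSP5 was at -1.16, DUSP6 at -3.29 and DUSP4 at 1.60.

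The other 6 did not pass. Relative to the median, with the standard error of the fit, SPRY2 was at -1.04 ± 1.29, SPRY4 at 0.88 ± 1.33, SPRED1 at -1.06 ± 0.74, SPRED2 at 0.02 ± 0.75, ETV4 at -0.56 ± 0.61 and ETV5 at -0.94 ± 0.64. Each had at most 8 counts in a library of the second pair, and SPRY2, SPRY4 and SPRED2 had 0 in 1 of them. Directions turned with 1 library: SPRY2 was 7.83 and SPRY4 -1.80 without second pair replicate 2, and SPRED2 was -2.00 without second pair replicate 1 and -0.24 without A549/DDP replicate 1. Where the only second pair library left held 0 counts the fold has no meaningful size; this covers SPRY2 at 7.83 and SPRED2, which passed at 10.48 without second pair replicate 2.

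**Figure D3:**
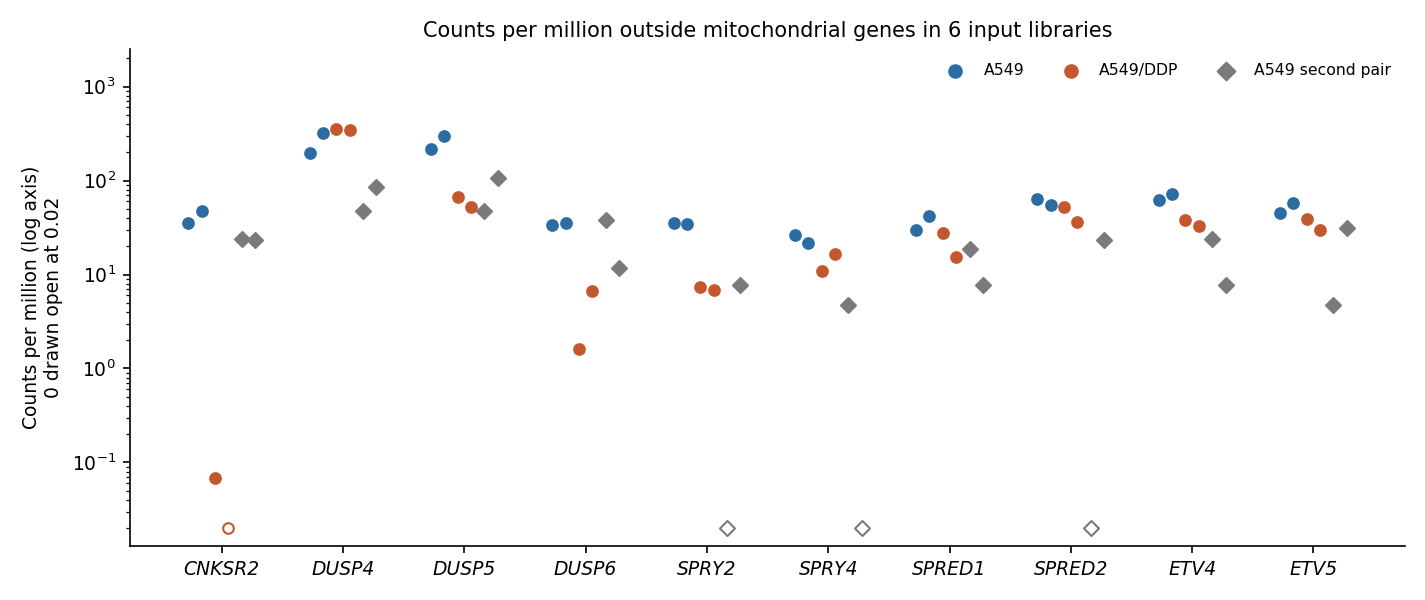
The 10 genes in all 6 input libraries as CPM outside mitochondrial genes, on a log axis. A value of 0 is drawn open at the foot of the axis.

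The m6A peak lists named 9 of the 10 genes in A549 replicate 1, 8 in A549 replicate 2, and 5 and 3 in A549/DDP replicates 1 and 2. Of all 16406 genes tested for RNA, 43.7%, 30.6%, 40.7% and 22.2% were named in those lists. The peaks of the 10 numbered 35, 24, 15 and 9, and all 83 lay inside the RefSeq span of the gene. The lists hold calls and no read counts, so a gene with little RNA can lack a peak for want of reads, and a change in methylation was not tested.

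DUSP4, DUSP5 and SPRED2 had peaks in all 4 lists, and SPRED1 in none. DUSP6 had 3 and 5 peaks in A549 and 0 in both A549/DDP lists, SPRY4 7 and 5 against 0, and ETV5 5 and 1 against 0. These 3 of 10 stand beside 4.62% of all genes tested with that pattern, and the number was 5 without A549/DDP replicate 1 (12.5% of genes) and 1 with peaks at or below a p-value of 1e-05 (2.05%). Of the 10, 8 had a peak in both A549 lists, and the share of all genes that did was not computed. Because the genes were chosen on the RNA contrast, and little RNA can leave a gene without a peak, nothing is read from the 3. CNKSR2 had 7 peaks in A549 replicate 1 and 0 in the other 3 lists. SPRY2 had 1, 1, 2 and 0 peaks, and ETV4 6, 2, 3 and 0.

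Merged where they shared a base on the same strand, the 83 peaks made 38 regions, of which 4 were called in all 4 libraries and 21 in 1 library only. With peaks at or below 1e-05 there were 25 regions. In both A549 libraries but no A549/DDP library lay 8 of the regions: 5 in SPRY4, 2 in DUSP6 and 1 in ETV5. The lists differ in size (26320, 14576, 27244 and 10661 peaks) and the share over all regions was not computed, so nothing is read from the 8. The 3, 3, 2 and 2 peaks of DUSP5 merged into a single region over all 4 libraries. It ended 88 bases before the gene end, an edge set by A549/DDP replicate 1. With an overlap of 50% required, DUSP5 had 2 regions. In DUSP4 the first region began 16 bases from the gene start and was called in all 4, and the SPRY2 region was called in both A549 libraries and A549/DDP replicate 1.

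Promoters of 250 bases upstream of the start, from RefSeq on GRCh38.p14, were available for 6 of the 10 genes. They were searched on both strands for the ETS core CCGGAA, the Capicua octamers TGAATGAA and TGAATGGA, the cyclic AMP response element TGACGTCA and the AP-1 site TGANTCA. Of 35116 promoters, 14.5%, 1.40%, 0.832%, 1.65% and 6.57% held them. Over the 9 starts of the 6 genes there was 1 match, a CCGGAA in the upstream start of SPRY2 that begins 142 bases before the gene start. A match describes letters and no binding was measured.

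The SPRY2 window is chr13:80341127-80341376 on the minus strand, with the match in capitals.

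SPRY2: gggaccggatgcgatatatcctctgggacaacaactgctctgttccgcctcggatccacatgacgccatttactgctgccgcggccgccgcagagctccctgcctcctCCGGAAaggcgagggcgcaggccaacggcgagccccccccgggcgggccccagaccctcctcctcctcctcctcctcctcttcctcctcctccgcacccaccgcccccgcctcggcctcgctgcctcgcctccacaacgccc

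The CNKSR2 window is chrX:21374168-21374417 on the plus strand. It holds 37 CpG at 78.0% GC, against medians of 11 and 58.0% over all promoters, and none of the 5 motifs is in its letters.

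CNKSR2: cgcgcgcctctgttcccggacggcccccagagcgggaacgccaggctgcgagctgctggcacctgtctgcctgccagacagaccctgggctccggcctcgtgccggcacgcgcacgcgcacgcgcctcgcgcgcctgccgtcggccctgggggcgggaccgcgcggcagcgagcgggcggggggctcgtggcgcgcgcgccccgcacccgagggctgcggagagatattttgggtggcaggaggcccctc

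The DUSP6 window is chr12:89352502-89352751 on the minus strand, with 16 CpG at 57.2% GC. None of the 5 motifs is in its letters.

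DUSP6: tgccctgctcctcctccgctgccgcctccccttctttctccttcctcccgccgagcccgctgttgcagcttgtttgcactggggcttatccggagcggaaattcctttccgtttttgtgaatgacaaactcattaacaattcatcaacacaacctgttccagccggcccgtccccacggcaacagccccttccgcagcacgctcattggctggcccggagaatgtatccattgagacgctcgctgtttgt

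Beyond the 10, 97 RAS-ERK genes in 8 lists by role were read in the first contrast, and 87 were tested. The lists followed pathway role but were written with earlier results known. Of the 87, 21 were lower and 5 higher in A549/DDP, beside 8.00% and 6.85% of all genes tested, with a median log2 fold change of -0.55 against 0.00 over all genes. Against the second A549 pair 85 were tested, with 12 lower and 19 higher, beside 10.0% and 17.2% of all genes. With DESeq2 18 of 84 were lower and 18 higher, beside 15.6% and 15.2%. Lower calls did not outnumber higher ones in either fit against the second pair. These tests were against 0, while the median over all genes was 0.80 with edgeR and -0.34 with DESeq2. Counts there were also low, with 0 in both second pair libraries for DAB2IP and ARRB1, so the directions are not directly comparable with the first contrast. A difference from the shares of all genes was not tested. In the first contrast the list of other ERK-induced output genes had the most lower calls, 7 of 15, and 0 higher, with a median of -1.59. In the edgeR quasi-likelihood test after Benjamini-Hochberg adjustment, the largest of those that passed were FOSL1 at -4.38 ± 0.60 (adjusted p = 0.00921), PHLDA1 at -3.63 ± 0.30 (0.00295), EPHA2 at -2.96 ± 0.31 (0.00461) and MYC at -2.07 ± 0.27 (0.00800). In CPM, FOSL1 went from 535 and 176 to 21.6 and 12.6, and PHLDA1 from 358 and 225 to 26.8 and 20.3.

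RAF, MEK, ERK and their substrate kinases had 1 lower and 1 higher of 12, with a median of 0.13. These were BRAF at -1.42 ± 0.31 and MKNK2 at 1.18 ± 0.19 (edgeR quasi-likelihood test after Benjamini-Hochberg adjustment, adjusted p = 0.0339 and 0.0147), and neither passed without A549/DDP replicate 1 (0.0720 and 0.0543). MAP2K2, the highest of the list in TPM, was at 0.39 ± 0.18 and did not pass.

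Other scaffolds and modulators had 4 lower and 2 higher of 15. In the edgeR quasi-likelihood test after Benjamini-Hochberg adjustment, ARRB1 was at 3.19 ± 0.47 (adjusted p = 0.0110) and KSR1, a scaffold of RAF and MEK, at 1.83 ± 0.31 (0.0159), while PEA15 was at -2.18 ± 0.29 (0.00829) and ERBIN at -1.79 ± 0.16 (0.00355). KSR1 CPM was 29.0 and 51.1 in A549 and 157 and 128 in A549/DDP. Other feedback inhibitors had 2 lower and 1 higher of 10. DUSP1 fell by 2.70 ± 0.22, DUSP16 rose by 1.62 ± 0.18 and ERRFI1 fell by 0.82 ± 0.19 (edgeR quasi-likelihood test after Benjamini-Hochberg adjustment, adjusted p = 0.00294, 0.00520 and 0.0394). ERRFI1 did not pass without A549/DDP replicate 1 (0.0917) or replicate 2 (0.222), as adjusted p in the edgeR quasi-likelihood test after Benjamini-Hochberg adjustment.

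In the list of RAS GTPases, RRAS2 was at -1.84 ± 0.24 (edgeR quasi-likelihood test after Benjamini-Hochberg adjustment, adjusted p = 0.00789). RAS GTPase-activating proteins had 2 lower and 1 higher of 8: RASAL2 at -1.31 ± 0.24, NF1 at -0.92 ± 0.21 and DAB2IP at 1.34 ± 0.25 (edgeR quasi-likelihood test after Benjamini-Hochberg adjustment, adjusted p = 0.0199, 0.0379 and 0.0216). None of the 3 passed without A549/DDP replicate 2 (0.0705, 0.191 and 0.0661), nor NF1 without A549/DDP replicate 1 (0.0562). NF1 differed by unit, with TPM of 39.11 and 41.61 in A549 and 42.46 and 36.78 in A549/DDP.

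Adaptors and exchange factors had 1 lower of 10, RASGRF2 at -8.05 ± 1.87 (edgeR quasi-likelihood test after Benjamini-Hochberg adjustment, adjusted p = 0.0388), which had 1 count in A549/DDP and did not pass without A549 replicate 1 (0.517). In that list 3 genes passed without A549 replicate 2 and 2 without A549/DDP replicate 1. SHC1, its highest in TPM, was at 0.61 ± 0.16 and lay just above the threshold (edgeR quasi-likelihood test after Benjamini-Hochberg adjustment, adjusted p = 0.0550). Its adjusted p was 2.99e-05 and 0.00897 without A549 replicates 1 and 2, and 0.260 and 0.232 without A549/DDP replicates 1 and 2, by the same edgeR quasi-likelihood test after Benjamini-Hochberg adjustment. In TPM it overlapped, with 492 and 421 in A549 and 541 and 434 in A549/DDP.

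ETS factors and the Capicua complex had 2 lower of 11, ETS1 at -5.10 ± 0.37 and ELK3 at -1.71 ± 0.33 (edgeR quasi-likelihood test after Benjamini-Hochberg adjustment, adjusted p = 0.00235 and 0.0226). Without A549 replicate 2 the list had 4, with ERF at 0.63 (adjusted p = 0.00751) in place of 0.31 ± 0.23 in the edgeR quasi-likelihood test after Benjamini-Hochberg adjustment.

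**Figure D4:**
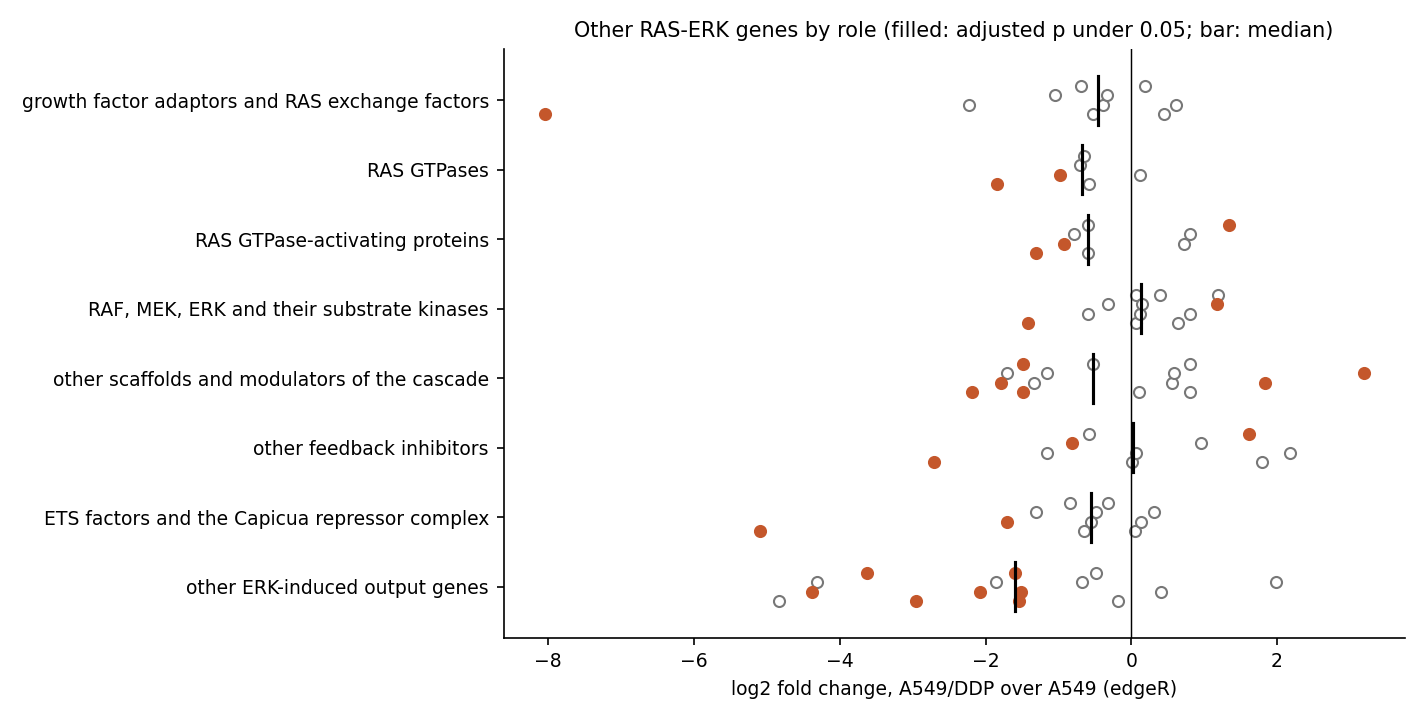
log2 fold change of the other RAS-ERK genes tested in the first contrast, by role. Filled points passed the edgeR threshold and bars are list medians.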

How the data were processed

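Expected counts and TPM deposited by the authors for 6 input libraries were used, with the deposited p-value of each m6A peak; FPKM was not used. The submitters' processing notes name STAR, RSEM, bedtools and hg38. The notes do not say if the peak p-value was adjusted. The replicate numbers of the A549 m6A libraries differ between titles and deposited tables, and titles were followed.

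Expected counts were rounded and genes kept by filterByExpr (16406 tested; 13815 with the second pair), scaled by TMM and fitted with edgeR 4.0.16 (glmQLFit, glmQLFTest) in R 4.3.3. Benjamini-Hochberg adjustment covered all genes tested, with a threshold of 0.05. Standard errors are the absolute log2 fold change over the square root of F. The common biological coefficient of variation was 0.656. No p-value is given for the 10 genes in the first contrast, because they were chosen on it. The 10 genes and the lists by role were chosen with earlier results of these data known, so adjusted p-values of list genes describe the spread between libraries and are no fresh test. The second A549 pair was fitted against the same A549/DDP libraries.

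Peaks were assigned by the gene name in the lists and merged if their exon blocks overlapped by 1 base or more on 1 strand. Genes named from a list are up to 4 with the largest changes among those past the threshold, plus the one with the highest TPM; not every such gene is printed.

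Alternatives were DESeq2 1.42.0, limma 3.58.1 with trend on log2 TPM (pseudocounts 1 and 0.1), upper-quartile scaling, other count filters, the replicate number as a block, mitochondrial counts left out, each library left out in turn, peaks at or below 1e-05, and an overlap of 50%. Leaving out libraries for the m6A lists and for the TPM order was added after the data were seen. Scripts ran in Python 3.11.15 with numpy 2.4.6, pandas 2.3.3, scipy 1.17.1 and matplotlib 3.10.9, and the fit was checked on simulated data.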

Additional observations from a re-analysis of the deposited data

How the results depend on the processing

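With 2 libraries in each line, a fit that leaves 1 out assumes that the lone library varies like the other line. Replicate numbers do not pair libraries: deviations of same-numbered libraries had a correlation of 0.0259, and with the number as a block 3536 genes, 5 of the 10 and 30 of the other RAS-ERK genes were called, with 2 adaptors and exchange factors.

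The first contrast called 2437 genes in all. In its place DESeq2 called 4312, a filter of 1 count in total 4010, limma 1492 (pseudocount 1) and 1177 (0.1), and leaving out 1 library 2052 to 3809, the last without A549 replicate 2.

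limma on TPM called 3 of the 10 with either pseudocount, and 15 (pseudocount 1) or 14 (0.1) of the other RAS-ERK genes in place of 26. By list, limma called 0 adaptors and exchange factors, 1 RAS GTPase-activating protein, 0 of RAF, MEK, ERK and substrate kinases, 1 other feedback inhibitor and 1 of the ETS and Capicua list, with either pseudocount. Of the genes named from the lists that passed the edgeR threshold in the first contrast, limma did not call 9 with either pseudocount. With pseudocount 1 these were BRAF at -1.36, MKNK2 at 1.16, KSR1 at 1.59, DUSP16 at 1.21, ELK3 at -1.10, ERRFI1 at -0.64, DAB2IP at 0.70, RASGRF2 at -2.32 and NF1 at -0.03. SPRED1 was 0.15 (pseudocount 1) and 0.17 (0.1), against -0.81 from counts. CNKSR2 was -4.79 (pseudocount 1) and -7.95 (0.1), against -10.22 from counts.

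Adaptors and exchange factors had 2 called with DESeq2, with the 1-count filter and with upper-quartile scaling, and 1 to 3 when a library was left out. RAS GTPase-activating proteins had 0 to 3, RAF, MEK, ERK and substrate kinases 0 to 3, and ETS and Capicua 2 to 4 when a library was left out.

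Against the second pair and relative to the median, leaving out 1 library gave DUSP4 -0.91 to 0.60, SPRY2 -3.07 to 7.83, SPRY4 -1.80 to 9.29 and SPRED2 -2.00 to 10.48. The values 7.83, 9.29 and 10.48 are folds over a lone library with 0 counts and have no meaningful size. The ranges of the others tested were DUSP5 -3.76 to -2.01, DUSP6 -6.52 to -4.43, SPRED1 -3.15 to -0.68, ETV4 -2.76 to -0.45 and ETV5 -2.79 to -0.47. SPRED2 was -0.01 with the block. DESeq2 gave ETV4 0.48, ETV5 0.10, SPRY2 -0.02, SPRED1 -0.02, SPRY4 1.91 and SPRED2 1.11.

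Of the 3 genes with peaks in both A549 lists and neither A549/DDP list, 1 was left with peaks at or below 1e-05, and 3 to 5 when a list was left out.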
